A study of Danio rerio with 6 samples.

Results

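Opsins are the light-sensing proteins of photoreceptors. Each is a membrane receptor that holds a retinal chromophore, and when light changes the chromophore the opsin switches on transducin, a G protein, which in turn activates a phosphodiesterase that breaks down cGMP and closes cation channels. Zebrafish have rods for dim light and UV, blue, green and red cones for color, and each photoreceptor type is defined by the opsin it makes. In zebrafish larvae the cones start to work before the rods.

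The 9 genes described here are the rod opsin gene rho and 8 cone opsin genes: opn1sw1 (UV), opn1sw2 (blue), opn1mw1, opn1mw2, opn1mw3 and opn1mw4 (green), and opn1lw1 and opn1lw2 (red). They were chosen by name, as the visual opsins whose RefSeq transcripts have a row in the count files. Earlier results of these data were known when the genes were chosen. Each gene paired with 1 of the 15455 transcripts. In RefSeq's gene order on the GRCz12tu assembly, the 4 green opsin genes follow each other with no other protein-coding gene between them, and opn1sw2, opn1lw1 and opn1lw2 do the same.

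The RNA came from zebrafish at 72 hpf, whole embryos less the tail that was used for genotyping, with 8 embryos pooled into each library. There were 3 libraries of double homozygous hnrnpul1/1l mutants and 3 libraries of wild types. According to the methods and results of the study, the mutants carry CRISPR insertion alleles of hnrnpul1 (ca54) and hnrnpul1l (ca52), were zygotic mutants for hnrnpul1 and had hnrnpul1l mutant mothers, while the wild types are called siblings in one place and the offspring of hnrnpul1l heterozygotes in another. A mother without a wild-type copy of hnrnpul1l cannot have hnrnpul1l wild-type offspring, so the mothers differed between the genotypes. Parentage and genotype therefore cannot be told apart in these libraries. The libraries held estimated totals of 40891309 to 62580215 counts in mutants and 52250779 to 61266049 counts in wild types. Levels are given as CPM, a unit of counts relative to the library total after TMM scaling between libraries, and are not scaled for transcript length, so they are compared between libraries and not ranked between genes. The hnrnpul1 transcript (NM_213271) had 47.7, 45.7 and 22.1 CPM in mutants, against 127, 122 and 118 CPM in wild types. Every mutant library was thus below every wild-type library for hnrnpul1. Levels of hnrnpul1l, the other mutated gene, are not given here. Nothing in the sources says whether pools of 1 genotype came from separate clutches, so p-values measure the spread between these pools. The libraries were made from many tissues, and fewer photoreceptors in a pool cannot be told apart from less opsin RNA in each photoreceptor.

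Opsin RNA was lower in the mutant pools. All opsin transcripts together made up 0.0472%, 0.209% and 0.327% of all counts in mutants 1, 2 and 3, against 0.838%, 0.631% and 0.546% in wild types 1, 2 and 3. Of the 9 genes, 7 (opn1sw1, opn1sw2, opn1mw1, opn1mw2, opn1lw1, opn1lw2 and rho) had all 3 mutants below all 3 wild types, and the smallest count of these genes in any library was 86 (opn1lw1). Mutants lay wholly below wild types for 9.08% of the 13553 transcripts tested. The spread among mutants was wide, with 3.43-fold to 10.3-fold between the highest and lowest mutant for these 7 genes, against 1.13-fold to 1.96-fold between the highest and lowest wild type. With this spread edgeR called none of the 8 opsin transcripts that could be tested at an adjusted p of 0.05, the smallest being 0.350, and it called 0% of all transcripts tested. At an unadjusted p below 0.05, 6 opsin transcripts were lower, against 4.61% of all transcripts tested. The opsin count was 2 without wild type 1, where 547 of 13829 transcripts tested were lower at that threshold. It was 3 without mutant 2, where 899 of 13887 transcripts tested were lower. Over all transcripts in all 6 libraries, 625 were lower and 566 higher at that unadjusted threshold. These numbers were 1042 lower and 330 higher when libraries were scaled by total counts. DESeq2 called 1 opsin transcript (opn1mw2), where it called 0.751% of all transcripts as lower, and limma-voom called none. Over the 8 opsins tested the median log2 fold change was -1.74, against -0.01 over all transcripts tested, and none of the 8 was above 0, against 49.1% of all transcripts. An exact two-sided permutation test of 3 pools against 3 cannot give a p below 0.1.

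**Figure D1:**
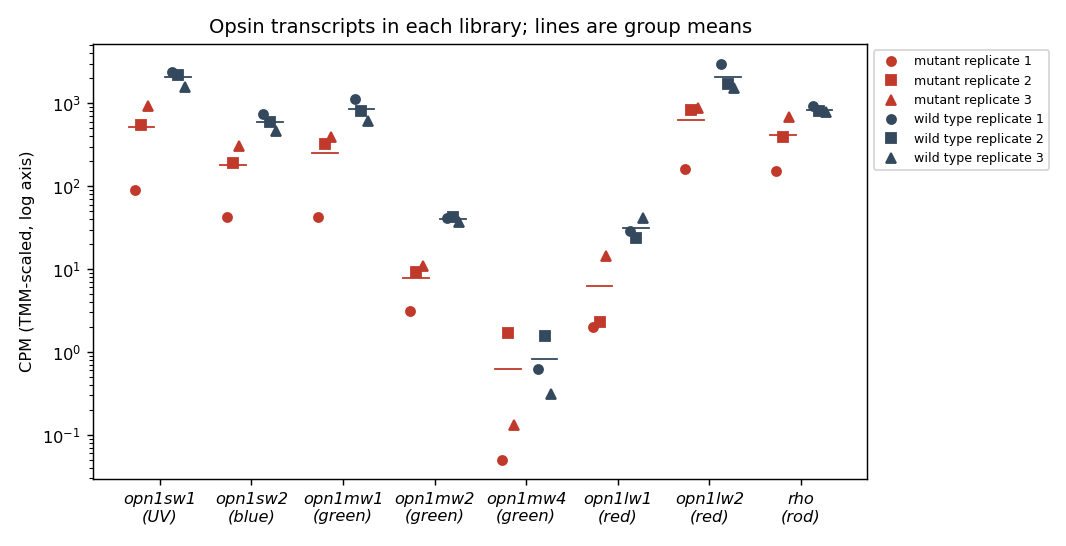
Level of each opsin transcript in each library, as TMM-scaled CPM on a log axis, with mutants on the left of each pair and wild types on the right; symbols mark the replicate and short lines the group mean. The opn1mw3 gene is not drawn because it had counts in a single library, and opn1mw4 is the one drawn gene whose mutants and wild types overlap.

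The UV opsin gene opn1sw1 (NM_131319) encodes the short-wavelength pigment of UV cones. It had 89.4, 547 and 922 CPM in mutants 1, 2 and 3, against 2404, 2215 and 1551 CPM in wild types 1, 2 and 3. The groups did not overlap, and mutant 1 stood far below the other mutants. The means were 520 ± 417 CPM in mutants and 2056 ± 448 CPM in wild types (SD, n = 3 each), a wild-type level 3.96 times that of mutants. On the log2 scale the fitted difference was -1.98 ± 0.69 (SE), and edgeR's adjusted p was 0.499. Without mutant 1 it was -1.44 and without mutant 3 it was -2.70.

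The blue opsin gene opn1sw2 (NM_131192), which encodes the pigment of blue cones, had 42.7, 189 and 307 CPM in mutants and 745, 592 and 457 CPM in wild types. Again all mutants lay below all wild types, and mutant 1 was the lowest. The means were 180 ± 132 CPM in mutants and 598 ± 144 CPM in wild types (SD, n = 3 each). This gave a log2 difference of -1.74 ± 0.61 (SE), with an edgeR adjusted p of 0.499. Without mutant 1 it was -1.23 and without mutant 3 it was -2.37.

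The green opsins are 4 tandem copies of 1 ancestral gene, and in zebrafish opn1mw1 comes on first, with opn1mw3 and opn1mw4 used later. The opn1mw1 transcript (NM_131253) had 42.1, 321 and 393 CPM in mutants, against 1109, 815 and 607 CPM in wild types. Its groups were separated by 1.54-fold between the lowest wild type and the highest mutant, and the log2 difference was -1.74 ± 0.69 (SE), with an edgeR adjusted p of 0.548. The opn1mw2 transcript (NM_182891) had 3.16, 9.14 and 10.8 CPM in mutants, against 41.6, 42.2 and 37.2 CPM in wild types. This was the widest gap among the opsins, with the lowest wild type at 3.44 times the highest mutant and wild types that differed by 1.13-fold. The means were 7.71 ± 4.03 CPM in mutants and 40.3 ± 2.72 CPM in wild types (SD, n = 3 each). For opn1mw2 the log2 difference was -2.39 ± 0.44 (SE), with an adjusted p of 0.350 from edgeR and 2.09e-04 from DESeq2, the one adjusted p below 0.05 that any of these tools gave for an opsin in all 6 libraries.

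The remaining green opsin genes were close to the limit of detection. The opn1mw4 transcript (NM_131254) had 3, 64 and 7 counts in mutants and 36, 84 and 21 counts in wild types, or 0.0504, 1.72 and 0.131 CPM in mutants and 0.616, 1.58 and 0.314 CPM in wild types. Mutants and wild types overlapped, and the log2 difference of -0.41 ± 1.61 (SE, edgeR adjusted p = 0.979) turned to 0.44 without wild type 2, to 0.14 without mutant 1 and to 0.07 without mutant 3. The opn1mw3 transcript (NM_182892) had 0 counts in all mutants and 0 in wild types 2 and 3, with 25 counts in wild type 1. It did not pass the filter on low counts. A count of 0 allows up to 3 counts in a library, which is 0.0504 to 0.0804 CPM in mutants and 0.0448 to 0.0563 CPM in wild types, so at this depth no difference was detectable for opn1mw3 outside wild type 1.

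The red opsins, made in the principal member of each double cone, are 2 tandem copies, of which opn1lw2 comes on first in zebrafish. The opn1lw2 transcript (NM_001002443) had 163, 828 and 887 CPM in mutants, against 2989, 1690 and 1525 CPM in wild types. No mutant reached the wild types. Here the spread was wide in wild types too, since wild type 1 stood at 1.96 times wild type 3. The fitted log2 difference was -1.72 ± 0.59 (SE), with an edgeR adjusted p of 0.489.

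The other red opsin transcript, opn1lw1 (NM_001313715), had 2.02, 2.31 and 14.2 CPM in mutants, against 28.6, 23.6 and 41.8 CPM in wild types. Mutants 1 and 2 were almost level with each other and mutant 3 was the highest, whereas mutants 2 and 3 were the closer pair for the other cone opsins whose groups did not overlap. The difference was -2.34 ± 0.76 on the log2 scale (SE, edgeR adjusted p = 0.474). It was -3.87 without mutant 3, with an adjusted p of 0.0551 from edgeR, and stayed at -1.87 or below without any other single library. Estimated counts of opn1lw1 were not whole numbers in 6 of 6 libraries, and those of opn1lw2 in 3, opn1mw1 in 3 and opn1mw2 in 4. Estimates that are not whole arise where reads match more than 1 transcript, so the levels of single copies in the red pair and the green array are uncertain to that extent. The estimates of opn1sw1, opn1sw2, rho, opn1mw3 and opn1mw4 were whole in every library. For opn1mw3 this says nothing of shared reads in the 5 libraries where its estimate was 0.

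Rhodopsin, encoded by rho (NM_131084), is the pigment of rods. It had 154, 396 and 689 CPM in mutants, against 923, 800 and 774 CPM in wild types. The groups did not overlap, but mutant 3 lay close to the wild types, with the lowest wild type at 1.12 times its level. The means were 413 ± 268 CPM in mutants and 832 ± 79.9 CPM in wild types (SD, n = 3 each). In the edgeR fit this was -1.01 ± 0.47 on the log2 scale (SE), with an adjusted p of 0.589. It was -0.58 without mutant 1 and -1.61 without mutant 3.

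Opsin levels were also summed by class. Relative to the wild-type mean, the UV, blue, green and red classes stood at 4.35%, 7.13%, 5.12% and 7.85% in mutant 1. In mutant 2 they stood at 26.6%, 31.7%, 37.4% and 39.5%, and in mutant 3 at 44.8%, 51.3%, 45.7% and 42.9%. Mutant 1 thus lay below mutants 2 and 3 in every cone class, while mutants 2 and 3 were close for red opsin. The rod class stood higher than every cone class in each mutant, at 18.5%, 47.5% and 82.7% of the wild-type mean. Mutant 1 was the lowest mutant for 8 of the 8 opsins tested and mutant 3 the highest for 7 of them. Among wild types, replicate 3 was the lowest for 7 of 8. Averaged over the 3 mutants, the classes were 25.3% (UV), 30.0% (blue), 29.4% (green), 30.1% (red) and 49.6% (rod) of the wild-type mean.

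**Figure D2:**
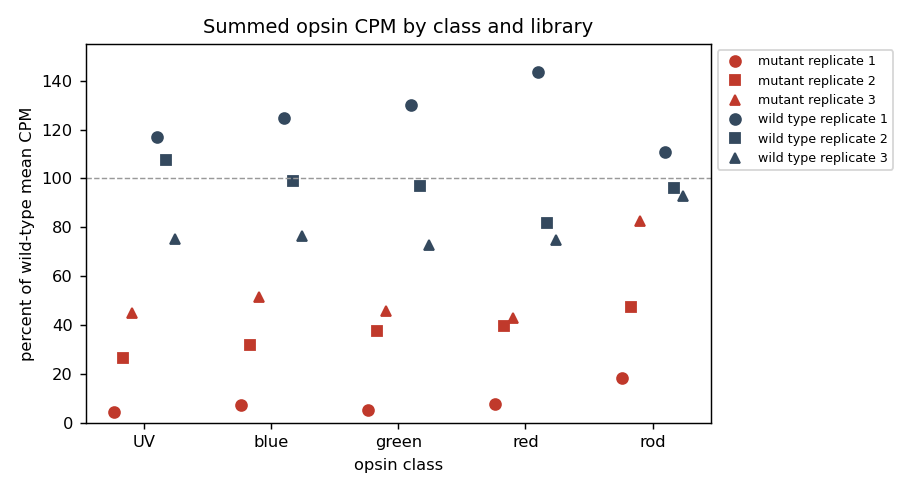
Summed CPM of each opsin class in each library as a percentage of the wild-type mean of that class, mutants on the left and wild types on the right of each class. In mutant 1 the cone classes sit between 4.35% and 7.85% and the rod class at 18.5%, and in every class the 3 mutants lie below the 3 wild types.

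The makeup of the opsin counts separated the genotypes for rod and UV opsin and not for the other classes. These shares are of counts, not scaled for transcript length, and they do not depend on depth or on the scaling between libraries. The rod share of all opsin counts was 31.0%, 17.3% and 21.4% in mutants, against 11.2%, 12.9% and 15.5% in wild types, so every mutant was above every wild type. The UV share was 18.0%, 23.9% and 28.6% in mutants, against 29.2%, 35.8% and 31.1% in wild types, and every mutant was below every wild type. UV counts as a share of cone opsin counts alone overlapped between the groups, at 26.1% to 36.4% in mutants and 32.8% to 41.2% in wild types. The blue share of all opsin counts was 8.25% to 9.53% in mutants and 9.04% to 9.58% in wild types. For green the share was 9.14% to 14.5% in mutants and 12.9% to 14.0% in wild types, and for red it was 27.9% to 36.2% in mutants and 27.7% to 36.6% in wild types. Blue, green and red overlapped between the genotypes. The 95% Wilson intervals reached at most 0.537 percentage points either side for the class shares of all opsin counts. For the UV share of cone opsin counts they reached at most 0.603 points. These intervals cover counting error only.

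**Figure D3:**
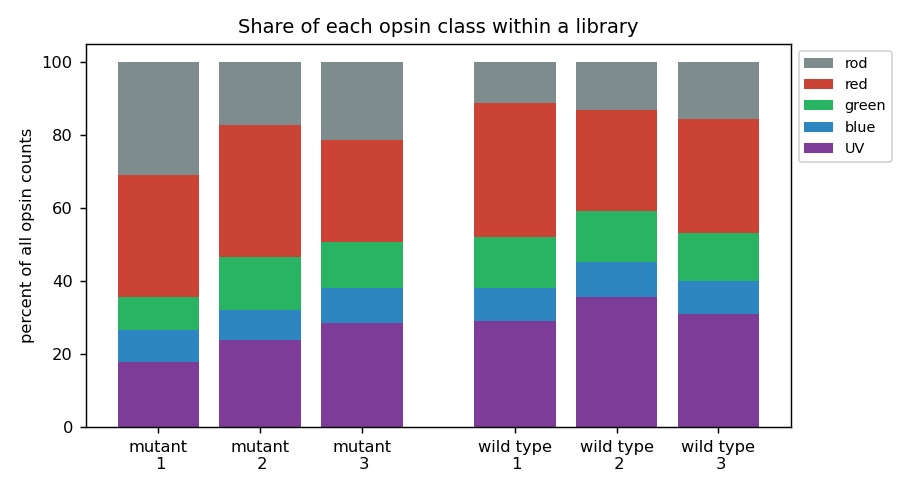
Percentage of all opsin counts in a library that came from each class, as stacked bars with the 3 mutants on the left and the 3 wild types on the right. The rod part, on top, is 17.3% to 31.0% in mutants and 11.2% to 15.5% in wild types, and the UV part, at the bottom, is 18.0% to 28.6% in mutants and 29.2% to 35.8% in wild types.

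Within a class, the gene that held most of the counts was the same in both genotypes. The opn1mw1 transcript held 92.9%, 96.7% and 97.3% of green opsin counts in mutants, against 96.3%, 94.9% and 94.2% in wild types. The opn1lw2 transcript held 98.8%, 99.7% and 98.4% of red opsin counts in mutants, against 99.1%, 98.6% and 97.3% in wild types. Both ranges overlapped between the genotypes.

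The genes that carry the opsin signal onward were measured in the same libraries. Their list and the other gene lists below were chosen with earlier results of these data known. Of 29 genes listed for the cone cascade, 21 were tested, none was called by edgeR, 19 had a negative log2 fold change, and 15 had all mutants below all wild types, against 9.08% of all transcripts tested. DESeq2 called 4 of the 21 genes as lower, against 0.751% of all transcripts, and the median log2 fold change of the 21 was -1.56. The gnat2 gene, for the cone transducin alpha subunit, had 43.7, 156 and 344 CPM in mutants, against 722, 751 and 635 CPM in wild types. Its groups did not overlap, and the log2 difference was -1.96 ± 0.62 (SE, edgeR adjusted p = 0.474). Log2 differences were -2.05 ± 0.59 for pde6c, the catalytic subunit of the cone phosphodiesterase, -2.03 ± 0.56 for gngt2b, a cone transducin gamma subunit, and -2.07 ± 0.87 for pde6ha, an inhibitory subunit of the phosphodiesterase. By contrast, gnb3a, a transducin beta subunit, had 301, 370 and 260 CPM in mutants and 391, 365 and 344 CPM in wild types, and its groups overlapped.

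Averaged on the log2 CPM scale, the 6 cone opsins with a mean of at least 1 CPM lay at -3.87, -1.94 and -1.20 relative to the wild-type mean in mutants 1, 2 and 3. The 20 cone cascade genes with such a mean lay at -2.70, -1.69 and -0.60. The average of the cone opsins was therefore further below its wild-type mean than the cascade average was in each mutant. The cone opsins less the cascade gave a mean difference of -0.67 on the log2 scale, which was not tested because it averages over chosen genes, and which lay between -0.89 and -0.43 with single libraries left out. Single genes did not all follow this order. The fitted log2 differences of gnat2 (-1.96), pde6c (-2.05), gngt2b (-2.03) and pde6ha (-2.07) were larger in size than those of opn1sw2 (-1.74), opn1mw1 (-1.74) and opn1lw2 (-1.72). Those of opn1mw2 (-2.39) and opn1lw1 (-2.34) were larger than that of any cascade gene. The cascade average also held genes with small changes, such as gnb3a (-0.24) and rgs9b (-0.36).

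The rod cascade gave smaller log2 fold changes. Of 17 genes listed, 12 were tested, 10 had a negative log2 fold change, 2 (saga, a rod arrestin gene, and guca1b, a guanylate cyclase activator gene) had all mutants below all wild types, none was called by edgeR or DESeq2, and the median log2 fold change was -0.37. Among all transcripts tested, 9.08% had all mutants below all wild types. The rod transducin alpha gene gnat1 had 35.9, 101 and 112 CPM in mutants, against 160, 95.4 and 103 CPM in wild types. Mutant 1 alone lay below the wild types. For gnat1 the log2 difference was -0.53 ± 0.42 (SE, edgeR adjusted p = 0.792).

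Outer segments are the stacked membranes in which opsins are packed. All 6 tested genes of 14 listed for outer segment structure had a negative log2 fold change, with a median of -1.17. All mutants lay below all wild types for 3 of the 6, against 9.08% of all transcripts tested. The cdhr1a gene, for a photoreceptor cadherin, had 3.02, 6.14 and 7.26 CPM in mutants, against 39.0, 19.1 and 29.7 CPM in wild types, and prph2a, for peripherin, had 10.2, 13.0 and 65.7 CPM in mutants, against 142, 174 and 154 CPM in wild types. DESeq2 called both as lower and edgeR neither, with adjusted p-values of 0.328 for cdhr1a and 0.431 for prph2a. Of 15 genes listed for the retinoid visual cycle, which renews the chromophore, 14 were tested, and 11 had a negative log2 fold change, with a median of -0.81 over the 14. All mutants lay below all wild types for 6 of the 14, again against 9.08% of all transcripts tested. The abca4a gene, for an outer segment transporter of retinal compounds, had 2.3, 5.12 and 2.91 CPM in mutants, against 19.3, 9.60 and 12.2 CPM in wild types. DESeq2 called 3 of these 14 genes as lower, against 0.751% of all transcripts, and edgeR called none of the 14.

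**Figure D4:**
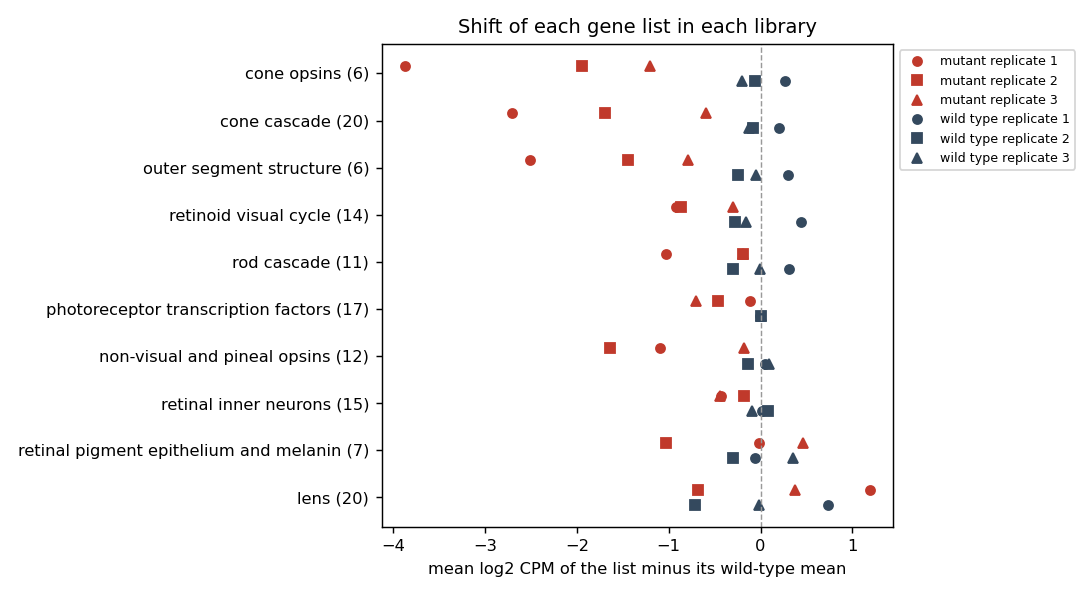
Mean log2 CPM of each gene list in each library, less the wild-type mean of that list, with mutants drawn above wild types in each row and the number of genes with a mean of at least 1 CPM in parentheses. The cone opsins, at -3.87, -1.94 and -1.20 in mutants 1, 2 and 3, lie furthest left, while the lens genes overlap between the genotypes.

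Several transcription factors set which opsin a zebrafish photoreceptor makes. The log2 fold changes of the factors tested, from -1.17 to 0.93, were smaller in size than the opsin median of -1.74. The upper end, 0.93, was that of nrl, which had a mean of 0.52 CPM. The pools held many tissues, so the level of a factor made in other tissues too is not that of photoreceptors alone. In zebrafish, tbx2b is needed for UV cones, foxq2 for blue opsin, six7 for green opsin, thrb for red cones and nr2e3 and nrl for rods, while crx acts in all photoreceptors. The six7 gene had 72.4, 48.8 and 54.8 CPM in mutants, against 93.9, 105 and 142 CPM in wild types, so the groups did not overlap. The log2 difference for six7 was -0.96 ± 0.24 (SE), with adjusted p-values of 0.407 from edgeR and 0.0512 from DESeq2. The crx gene had 502, 409 and 286 CPM in mutants, against 637, 511 and 575 CPM in wild types, without overlap, and a log2 difference of -0.53 ± 0.25 (SE). Mutant 3, the highest mutant for every tested cone opsin but opn1mw4, was the lowest for crx. For tbx2b the levels were 104, 170 and 66.0 CPM in mutants, against 132, 118 and 98.8 CPM in wild types. Those of thrb were 19.0, 8.50 and 7.71 CPM in mutants, against 13.1, 8.50 and 9.10 CPM in wild types. The groups overlapped for tbx2b and thrb, and likewise for foxq2, nr2e3 and nrl, with log2 differences of -0.19 ± 0.50 for foxq2, 0.06 ± 0.29 for nr2e3 and 0.93 ± 2.51 for nrl (SE). Of 19 factors listed, 18 were tested, 14 had a negative log2 fold change, none was called by edgeR or DESeq2, and the median was -0.38. All mutants lay below all wild types for 8 of the 18, against 9.08% of all transcripts tested.

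Opsins outside the visual photoreceptors were counted in the same libraries. Exorhodopsin, encoded by exorh, is the close relative of rho made in the pineal organ. It had 26.6, 2.31 and 9.04 CPM in mutants, against 20.0, 15.1 and 12.7 CPM in wild types, so mutant 1, the lowest for rho, was the highest of all libraries for exorh. Of 32 non-visual and pineal opsin genes listed, 22 were tested, 21 had a negative log2 fold change, none was called by edgeR or DESeq2, and the median was -0.88. All mutants lay below all wild types for 2 of the 22, a share close to the 9.08% of all transcripts tested. These were opn4.1, a melanopsin gene, with 28.5, 45.3 and 34.6 CPM in mutants and 73.9, 56.4 and 66.8 CPM in wild types, and tmtops2a, with 1.36, 1.34 and 2.43 CPM in mutants and 3.87, 3.34 and 3.36 CPM in wild types. The 12 genes of this list with a mean of at least 1 CPM were averaged as log2 CPM, relative to their wild-type mean. That average was -1.09, -1.64 and -0.18 in mutants 1, 2 and 3. In wild types 1, 2 and 3 it was 0.05, -0.14 and 0.09. Every mutant was below every wild type on that scale, with mutant 3 close to wild type 2, and this difference was not tested.

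Markers of other eye and pineal cells were set beside the opsins. The pools held many tissues, so the levels of these lists, the melanin genes included, are not those of the eye or pineal alone. Of 16 genes listed for retinal inner neurons all were tested, and their log2 fold changes had a median of -0.22, with a summed level of 812 to 1788 CPM in mutants and 1068 to 1495 CPM in wild types. Of these 16 genes, 3 had all mutants below the wild types, against 9.08% of all transcripts tested, and 1 had all mutants above them, against 7.71% of all transcripts, a share that 1 of 16 does not exceed. Of the separated genes, grm6b, a glutamate receptor of ON bipolar cells, had 5.90, 8.39 and 23.8 CPM in mutants, against 34.7, 29.6 and 30.3 CPM in wild types, and ptf1a, a factor of amacrine and horizontal cell precursors that is also made in hindbrain and pancreas, had 12.3, 13.0 and 5.71 CPM in mutants, against 2.65, 4.58 and 3.99 CPM in wild types. For pigment epithelium and melanin, 7 of 9 listed genes were tested, with a median of 0.09 and a sum of 841 to 1935 CPM in mutants and 1138 to 1694 CPM in wild types. Of these 7 genes, 4 had a positive log2 fold change. The largest change on this list was that of rpe65a, also on the visual cycle list, at -1.37 ± 0.67 (SE, edgeR adjusted p = 0.611). It had 33.8, 18.3 and 131 CPM in mutants, against 169, 99.7 and 205 CPM in wild types, and its groups overlapped. For the lens, 22 of 27 listed genes were tested, with a median of 0.26 and a sum of 695 to 2522 CPM in mutants and 711 to 1878 CPM in wild types, and crygs3 was at 0 counts in all libraries. For the pineal, 4 of 5 listed genes were tested, with a median of -0.35 and a sum of 25.6 to 63.4 CPM in mutants and 44.8 to 60.0 CPM in wild types. The summed levels of all 4 lists overlapped between the genotypes. Averaged on the log2 CPM scale, the inner neuron list lay at -0.43, -0.18 and -0.44 relative to its wild-type mean in mutants 1, 2 and 3. In wild types 1, 2 and 3 it lay at 0.01, 0.08 and -0.10, so on that scale every mutant was below every wild type. The other lists of this paragraph overlapped on that scale too. The part of these lists in the opsin differences was not tested.

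The genes whose levels followed the cone opsins most closely were sought among the 12337 other transcripts tested with a mean of at least 1 CPM. Likeness was the root mean square difference, over the 6 libraries, between a transcript's log2 CPM profile and the mean profile of the 6 cone opsins, each centered on its own mean. A flat profile would score 1.42. The closest were gngt2b at 0.128, pde6c at 0.16 and gnat2 at 0.168. Next were samsn1b at 0.245, grk7a, a cone opsin kinase gene, at 0.264, syt5a, a synaptotagmin gene, at 0.343, gnb3b, a transducin beta subunit gene, at 0.344, gabra6a, a GABA receptor subunit gene, at 0.345, arr3b, a cone arrestin gene, at 0.352, and prph2b, a peripherin gene, at 0.380. Of these 10 genes, 6 are on the cone cascade list and 1 on the outer segment list. The synaptotagmin gene syt5a had 4.1, 12.8 and 16.2 CPM in mutants, against 48.5, 37.1 and 27.5 CPM in wild types, and samsn1b had 0, 1.02 and 4.03 CPM in mutants, against 9.18, 7.09 and 6.44 CPM in wild types. With 0 CPM for samsn1b and 0.77 CPM for gabra6a in mutant 1, their scores depend on the 0.5 CPM added before taking logs. Measured against the same mean, the cone opsins themselves lay between 0.153 (opn1sw2) and 0.684 (opn1lw1), rho at 0.574, and opn1mw4, with few counts, at 1.33.

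For rho the 5 closest profiles were those of itprip at 0.110, cabp5a, a gene for a calcium-binding protein, at 0.173, prkcbb, a protein kinase C gene, at 0.203, ankrd67 at 0.216 and gem, a small GTPase gene, at 0.218, where a flat profile would score 0.892. None of them is on the rod cascade list, and cabp5a is on the list for retinal inner neurons. Among them, prkcbb had 3.46, 6.30 and 12.5 CPM in mutants, against 20.5, 16.8 and 18.5 CPM in wild types. Levels were lower for itprip, with 0, 0.94 and 2.15 CPM in mutants and 2.41, 2.53 and 2.11 CPM in wild types. The cabp5a gene had 0.15, 1.26 and 3.4 CPM in mutants and 4.12, 2.8 and 3.57 CPM in wild types. At such levels the profile depends on the 0.5 CPM added before taking logs.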

How the data were processed

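Poly(A) RNA of whole embryos without tails was sequenced as paired-end, strand-specific libraries, 1 file for each. The deposited values are estimated counts for each RefSeq transcript, which the authors did not scale for depth or length. The submitters' processing notes name bcl2fastq 2.20.0.422, kallisto 0.42.4 and danRer10, and the RefSeq release is not given in the sources used here. Estimates were rounded to whole numbers. RefSeq's GRCz12tu gene table paired 14740 of 15455 transcripts with genes, matched by accession.

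Mutants were tested against wild types with edgeR 4.0.16 in R 4.3.3 (default filter on low counts, TMM, quasi-likelihood test, no covariate), with Benjamini-Hochberg adjustment over all 13553 transcripts tested. The standard error is the log2 fold change divided by the root of F. List means and likeness profiles used log2(CPM + 0.5). The test was checked on simulated data. Alternatives were RLE or total scaling, DESeq2 1.42.0, limma-voom 3.58.1, other filters, counts summed per gene, a replicate block and each library left out. Per library, 1 CPM stands for 37.3 to 66.9 counts, so among the opsins depth limits opn1mw3 and opn1mw4.

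Opsin members and gene lists were chosen with earlier results of these data known. Named were the members, hnrnpul1, exorh, gnat2, gnat1 and 7 photoreceptor factors, genes among the 3 with the largest change on each list at a mean of at least 1 CPM, and the closest profiles. The genes gnb3a, rgs9b, opn4.1 and crygs3 were chosen after their values were seen.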

Additional observations from a re-analysis of the deposited data

How the results depend on the processing

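Of the 9 opsins, DESeq2 called 1, and it called 196 of all transcripts, while edgeR called 0 of either in all 6 libraries, as did limma-voom. With each library left out, edgeR called 0 opsins and 0 to 1 of all transcripts, and 2 to 7 opsins had an unadjusted p below 0.05. In those fits, from 616 of 13873 transcripts tested (without wild type 2) to 1721 of 13887 (without mutant 2) met that unadjusted threshold. The log2 fold change of opn1mw4 ranged from -3.12 to 0.44 when single libraries were left out and was above 0 without wild type 2 (0.44), mutant 1 (0.14) or mutant 3 (0.07), and those of the other 7 tested opsins stayed negative under all alternatives run. Scaling by total counts moved the median of all transcripts to -0.13. With the replicate number as a block, 0 opsins were called, 7 had an unadjusted p below 0.05, and their smallest adjusted p was 0.267 from edgeR. Of all 13553 transcripts tested under that block, 698 were lower and 657 higher at the unadjusted threshold. Deviations of libraries with the same number had correlations of -0.158, 0.180 and 0.479 across transcripts, and mutant 1 was closest to wild type 3, so the numbers were not taken as pairs. Shares divided by coding length were not run, because no transcript lengths were used here.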
